A study of Drosophila melanogaster with 8 samples.

Results

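The UDP-glycosyltransferase genes of *Drosophila melanogaster* were followed in RNA from heads. The genes were chosen by symbol alone, as all those whose FlyBase symbol starts with *Ugt* and a digit, and 35 of the 17490 genes in the count table met this rule. No expression value was used in the choice. The study compared flies homozygous for a deletion of the odorant-binding protein gene *Obp56h* (*Obp56h-/-*) with the *CSB* control, *Canton S-B*, the strain in whose background the deletion was made with CRISPR/Cas9. The deletion line carries in place of *Obp56h* a cassette with *DsRed* under the eye-specific *3XP3* promoter, flanked by *loxP* sites, so that the cassette and the loss of the gene cannot be told apart, and it is a single line. The groups were *Obp56h-/-* males, *CSB* males, *Obp56h-/-* females and *CSB* females, all young adults, with 2 libraries each from pooled heads (ribosomal RNA depleted, 8 libraries in all). Nothing in the labels says that the pools of a group came from separate cultures, so p-values measure the spread between these libraries, which may be technical.

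UDP-glycosyltransferases are membrane-bound enzymes of the endoplasmic reticulum that attach a sugar from a UDP-sugar donor, in insects mostly UDP-glucose, to small lipophilic molecules. The products are more soluble in water and are more readily exported. In insects these enzymes are known for the inactivation of plant toxins and insecticides, for the handling of pigments and hormones, and, in the antenna, for the clearance of odorants. The number in a symbol names the family and the letter after it the subfamily, so that *Ugt35A1* and *Ugt35B1* belong to the same family and to different subfamilies.

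The 35 genes, all protein coding, fell into 13 numbered families, of which *Ugt37* had 8 members, *Ugt35* 6, *Ugt36* and *Ugt303* 4 each, *Ugt302* and *Ugt49* 3 each, and 7 others 1 each. In the BDGP6 assembly the largest group of neighbours lay on 3R, where 9 genes of the families *Ugt302*, *Ugt35*, *Ugt304* and *Ugt303* occupied 26885 bp from 11151026 to 11177910, with *Ugt35C1* 22697 bp before them. Smaller groups were *Ugt37C2*, *Ugt37E1* and *Ugt37D1* on 2L (16794211 to 16801584), *Ugt36F1*, *Ugt36D1* and *Ugt36E1* on 2L (18819344 to 18829059) and *Ugt303B3*, *Ugt303B1* and *Ugt303B2* on 3R (23532945 to 23538908). Neighbours of the same family can be similar in sequence, which was not compared here. The counts rest on reads that aligned to 1 place only, so that reads shared by near-identical stretches, if there are any, are missing. Exons of *Ugt36A1*, *Ugt307A1*, *Ugt36E1*, *Ugt37A1* and *Ugt49B1* overlap an annotated feature on the other strand, and the strand setting of the counting is not given in the sources used here, so the counts of these 5 genes are uncertain.

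The libraries held between 10127941 and 25918919 counted reads. *Obp56h* had at most 1 read in each *Obp56h-/-* library and between 54 and 110 in each *CSB* library, and the male-biased *lncRNA:roX1* was between 2627 and 3251 CPM (reads on the gene relative to the library total, scaled by TMM) in males and between 13.2 and 16.9 CPM in females. The replicate 1 libraries of *CSB* females and *CSB* males stood apart from the other 6. They lay at 61.2 and 40.8 on the first principal component (45.8% of the variance), against -25.2 to -4.77 for the others. Over 2198 genes with at most 1 read in each *Obp56h-/-* library they held 6368 and 6503 reads, against 1732 and 2079 in *CSB* female and male replicate 2, which are deeper. The yolk protein gene *Yp1* was also at 397 CPM in *CSB* male replicate 1, against 4.60 to 11.8 CPM in the other male libraries and at least 10160 CPM in females. The counts of *Ugt* genes called and the values of some named genes are therefore also given without these libraries. Levels, family shares, medians and correlations rest on all libraries. Photoreceptor markers summed to 35920 to 39110 CPM and glial markers to 2523 to 3249 CPM in every library. Markers of antennal olfactory neurons and their support cells (11 found of 12) summed to only 11.1 to 27.9 CPM, with 0 to 3 of the 11 listed at 0. *lush*, *Obp83a* and *Obp83b*, which are among the most abundant transcripts of the antenna, did not exceed 2.98, 5.999 and 3.88 CPM in any library. Midgut markers summed to 12.9 to 37.6 CPM, those of the male reproductive tract to 6.03 to 12.3 CPM and those of the ovary to 2.19 to 11.5 CPM. The Malpighian tubule list summed to 529 to 783 CPM and includes *Vha55*, a proton pump subunit that many tissues use.

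Levels of different genes were compared per length, as CPM per kb of the gene model, averaged over the 4 groups. On this scale 17 of the 35 genes were above 1, 13 above 5 and 8 above 10, beside a median of 5.93 CPM per kb over the 13536 genes that passed the filter on low counts. *Ugt35B1*, known for its expression in the antenna, had the highest level, 48.2 CPM per kb, which exceeded 90.3% of the genes tested. It stood at 45.4 and 46.6 CPM per kb in *Obp56h-/-* males, against 50.9 and 64.1 in *CSB* males, and at 46.6 and 42.3 in *Obp56h-/-* females, against 43.3 and 46.0 in *CSB* females. Its lowest library was above the highest library of every other *Ugt* gene. The antennal markers, by contrast, were near 0 in these heads.

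*Ugt302C1* (22.9 CPM per kb on average, between 20 and 27.3 in the 8 libraries) and *Ugt35C1* (20.1, between 14.1 and 29.7) followed, and their ranges overlapped. *Ugt35C1*, formerly *Ugt86Dd*, has been tied to resistance to nicotine. *Ugt36E1* averaged 16.5 CPM per kb (13.3 to 19.3) and *Ugt301D1* 16.2 CPM per kb (12.8 to 18.7), again within each other's range. *Ugt49C1*, *Ugt49B1* and *Ugt37D1* averaged 11.2, 11.1 and 10.7 CPM per kb, and their libraries overlapped as well. Below these 8 genes, the highest members of the remaining measured families were *Ugt316A1* at 8.59 CPM per kb (7.34 to 9.95), *Ugt50B3* at 6.01 (4.17 to 7.33), *Ugt317A1* at 2.96 (1.86 to 3.68) and *Ugt305A1* at 0.616 (0.249 to 1.07).

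*Ugt302C1* stood at 21.4 and 20.4 CPM per kb in *Obp56h-/-* males, against 25.98 and 27.3 in *CSB* males, and at 23 and 20 in *Obp56h-/-* females, against 20.6 and 24.4 in *CSB* females. *Ugt36E1* stood at 16.5 and 14.9 CPM per kb in *Obp56h-/-* males, against 18.4 and 19.3 in *CSB* males, and at 15.8 and 15.5 in *Obp56h-/-* females, against 13.3 and 18.3 in *CSB* females. *Ugt49B1* stood at 8.96 and 10.1 CPM per kb in *Obp56h-/-* males, against 7.58 and 12.9 in *CSB* males, and at 13.2 and 11.3 in *Obp56h-/-* females, against 12.2 and 12.7 in *CSB* females. For *Ugt302C1* and *Ugt36E1* the genotypes did not overlap in males and overlapped in females, and for *Ugt49B1* they overlapped in both sexes. With 2 libraries against 2, non-overlap is common: it held for 40.9% of all genes tested in males and for 41.3% in females. *Ugt316A1* stood at 8.46 and 9.95 CPM per kb in *Obp56h-/-* males, against 7.53 and 9.79 in *CSB* males, and at 8.04 and 7.34 in *Obp56h-/-* females, against 8.15 and 9.46 in *CSB* females. *Ugt50B3*, of a family found across insects, stood at 6.68 and 7.33 CPM per kb in *Obp56h-/-* males, against 5.88 and 6.28 in *CSB* males, and at 5.74 and 6.05 in *Obp56h-/-* females, against 4.17 and 5.97 in *CSB* females. *Ugt305A1* stood at 0.543 and 0.249 CPM per kb in *Obp56h-/-* males, against 0.362 and 1.06 in *CSB* males, and at 0.702 and 0.252 in *Obp56h-/-* females, against 1.07 and 0.690 in *CSB* females. The genotypes did not overlap for *Ugt316A1* in females and for *Ugt50B3* in males, overlapped for each in the other sex, and overlapped in both sexes for *Ugt305A1*, so that these genes too are to be read beside the 41.3% and 40.9% of all genes.

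**Figure D1:**
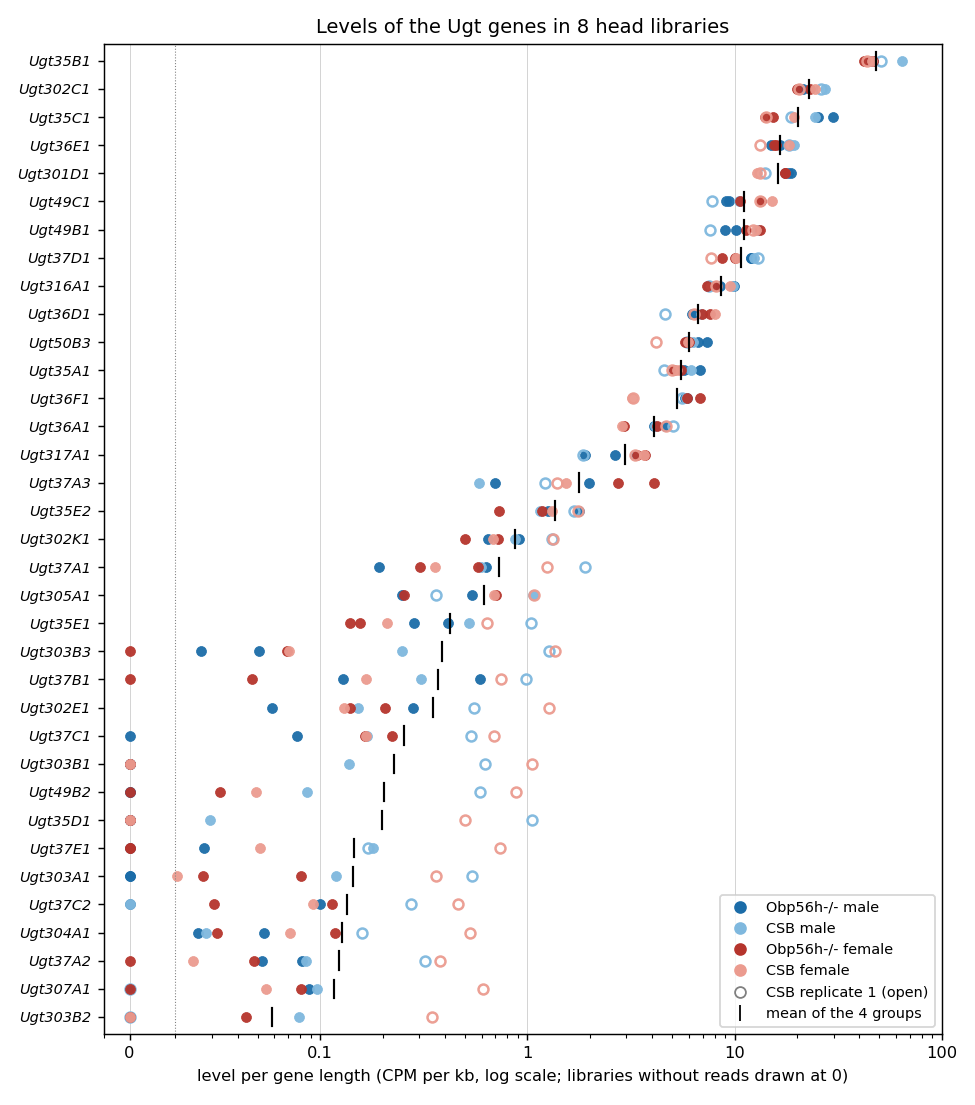
Level per gene length of each of the 35 *Ugt* genes in the 8 libraries, in CPM per kb on a log axis, with genes in the order of their mean. Points are libraries, coloured by group, with the replicate 1 libraries of *CSB* as open circles and the mean of the 4 groups as a short line. *Ugt35B1* lies to the right of all others at 48.2 CPM per kb, and for the genes at the bottom the open circles lie to the right of the other libraries.

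By family, the 6 *Ugt35* genes summed to 75.8 CPM per kb, which was 37.1% of the level of all *Ugt* genes, and most of it came from *Ugt35B1* and *Ugt35C1*. *Ugt36* gave 15.9%, *Ugt302* 11.8%, *Ugt49* 11%, *Ugt301* 7.91% and *Ugt37*, the family with the most genes, 6.98%. Levels also differed between adjacent genes. *Ugt37D1*, at 10.7 CPM per kb, begins 751 bp from *Ugt37E1* at 0.146 CPM per kb. *Ugt302C1* begins 584 bp from *Ugt302E1*, which was at 0.348 CPM per kb, and in the same group *Ugt35B1* lies between *Ugt35E2* at 1.35 CPM per kb and *Ugt35A1* at 5.501 CPM per kb. The sum over all *Ugt* genes was 392 and 410 CPM in *Obp56h-/-* males, against 397 and 456 CPM in *CSB* males, and 394 and 358 CPM in *Obp56h-/-* females, against 366 and 395 CPM in *CSB* females. The genotypes overlapped in both sexes. The sexes overlapped in *Obp56h-/-*, while in *CSB* the lower male library lay just above the higher female one.

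A level of 0.5 CPM per kb, set after the values were seen, divided the 35 genes. The 20 genes above it on average, called measured here, had reads in every library (the lowest *Ugt305A1*, at 0.616). The other 15 were below it (the highest *Ugt35E1*, at 0.425). These 15 were all 4 *Ugt303* genes, *Ugt304A1*, *Ugt307A1*, 5 of the 8 *Ugt37* genes (*Ugt37B1*, *Ugt37C1*, *Ugt37C2*, *Ugt37E1* and *Ugt37A2*), *Ugt35D1*, *Ugt35E1*, *Ugt49B2* and *Ugt302E1*. Together they had 723 reads in the 8 libraries, of which 449 (62.1%) were in the replicate 1 libraries of *CSB*, which held 16.9% of all counted reads and 17.02% of the reads of the other 20 *Ugt* genes. Each of the 15 had its highest CPM in a replicate 1 library of *CSB*. Some of the 20 were also highest there. *Ugt37A1* was at 1.25 and 1.90 CPM per kb in *CSB* female and male replicate 1, against 0.193 to 0.632 in the other libraries. Its average of 0.726 thus rests partly on those libraries. *Ugt302K1* was at 1.33 and 1.31, against 0.498 to 0.912. By library the 15 low genes together had 44 and 41 reads in *Obp56h-/-* males, against 254 and 78 in *CSB* males. In females they had 47 and 19 in *Obp56h-/-*, against 195 and 45 in *CSB*.

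*Ugt303B3*, the highest of its family, had 1 and 2 reads in *Obp56h-/-* males, against 41 and 9 in *CSB* males, with 3 and 0 reads in *Obp56h-/-* females, against 26 and 3 in *CSB* females. *Ugt303B1* had 0 reads in all 4 *Obp56h-/-* libraries, against 20 and 5 in *CSB* males and 20 and 0 in *CSB* females. *Ugt35D1* likewise had 0 reads in all *Obp56h-/-* libraries, against 32 and 1 in *CSB* males and 9 and 0 in *CSB* females. The counts of these genes follow the same replicate 1 libraries that hold reads on genes silent in the *Obp56h-/-* libraries, and the part of that background in them was not tested. A count of 0 allows up to 3 reads, which is 0.122 to 0.276 CPM depending on the library. *Ugt304A1* had 2 and 1 reads in *Obp56h-/-* males, against 5 and 1 in *CSB* males, with 5 and 1 in *Obp56h-/-* females, against 10 and 3 in *CSB* females. *Ugt307A1* had 0 and 3 reads in *Obp56h-/-* males, against 0 and 3 in *CSB* males, with 3 and 0 in *Obp56h-/-* females, against 10 and 2 in *CSB* females. These 2 genes, *Ugt37E1* and *Ugt303B2* did not pass the filter, and 11 of the 15 passed. No fold change is given for them.

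**Figure D2:**
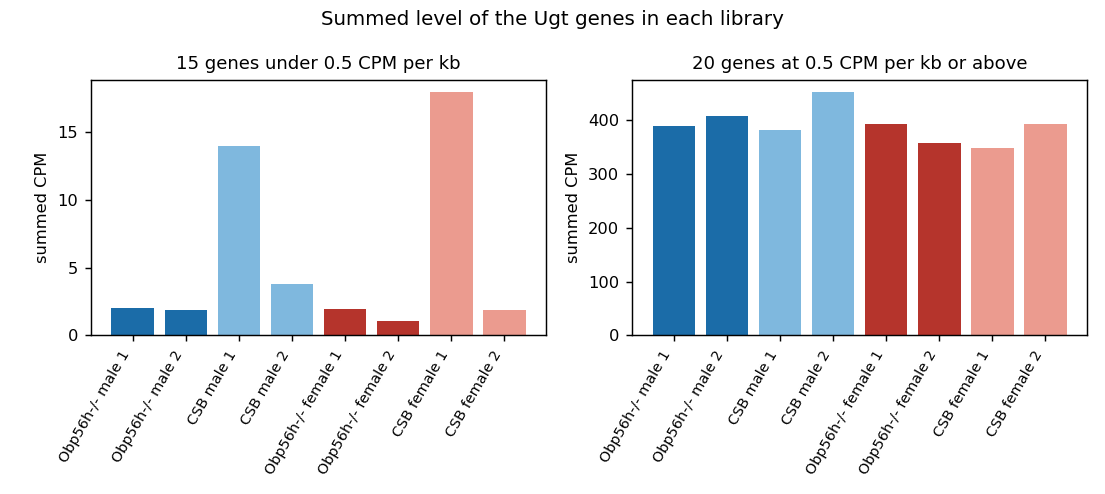
Summed CPM of the 15 *Ugt* genes below 0.5 CPM per kb (left) and of the 20 genes above it (right) in each library. The low genes sum to 14.0 CPM in *CSB* male replicate 1 and 18.0 CPM in *CSB* female replicate 1, against 1.05 to 3.79 CPM in the other 6 libraries, while the 20 genes sum to 349 to 453 CPM with no such pattern.

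The effect of the *Obp56h* deletion was tested with edgeR's quasi-likelihood test (two-sided) on all 13536 genes, with Benjamini-Hochberg adjustment over all of them and a threshold of 0.05. In females 1 of the 31 *Ugt* genes tested differed between *Obp56h-/-* and *CSB*, beside 1.03% of all genes tested. This gene, *Ugt36F1*, was at 5.90 and 6.82 CPM per kb in *Obp56h-/-* females, against 3.23 and 3.20 CPM per kb in *CSB* females. It rose 1.98-fold (log2 fold change 0.98 ± 0.20 (SE), adjusted p = 0.0162), and the libraries did not overlap, as for 41.3% of all genes. In males it was at 5.74 and 5.90 CPM per kb in *Obp56h-/-*, against 5.59 and 5.85 in *CSB*, and the libraries overlapped (log2 fold change 0.03 ± 0.19, adjusted p = 0.977). The level in *CSB* females was thus the low one among the 4 groups. In bulk RNA of heads, more cells that express a gene and more RNA in each cell cannot be told apart. The call was lost when *CSB* female replicate 1 was left out, although the fold change was as large (log2 fold change 1.00, adjusted p = 0.160), when both *CSB* replicate 1 libraries were left out (0.99, adjusted p = 0.0656), and without *CSB* female replicate 2 (0.95, adjusted p = 0.110) or *Obp56h-/-* female replicate 2 (0.90, adjusted p = 0.188). With all libraries kept it was lost with voom (adjusted p = 0.105) and with library size alone (adjusted p = 0.0694). *Ugt37A3* was called beside *Ugt36F1* when either *CSB* male library was left out, where calls over all genes rose as well.

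The genes next to *Ugt36F1* were not called. *Ugt36D1* begins 974 bp from it, with an estimate in females of 0.01 on the log2 scale (95% interval -0.38 to 0.40), and *Ugt36E1*, 53 bp further on, had -0.02 (-0.35 to 0.30). Both intervals lie below the estimate for *Ugt36F1*, and the difference between the genes was not tested. *Ugt36A1*, the fourth member of the family, known as *Dorothy* and named for its expression around the lymph gland and heart of the larva, had -0.04 (-0.52 to 0.45).

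In males 0 of the 31 genes were called, beside 0.502% of all genes. At an unadjusted p under 0.05 there were 7, beside 9.15% of all genes, and DESeq2 and limma's voom also called 0. Of the 7, *Ugt302C1* and *Ugt35B1* were among the 20 measured genes. *Ugt302C1* was at 21.4 and 20.4 CPM per kb in *Obp56h-/-* males, against 25.98 and 27.3 in *CSB* males (log2 fold change -0.35 ± 0.15, adjusted p = 0.491). *Ugt35B1* was at 45.4 and 46.6 CPM per kb, against 50.9 and 64.1 (-0.32 ± 0.15, adjusted p = 0.532). The libraries of the 2 genotypes did not overlap for either gene, as for 40.9% of all genes, and neither difference passed the test. The other 5 were among the low genes with most of their reads in the replicate 1 libraries. Without *CSB* male replicate 2, *Ugt35C1* and *Ugt303B3* were called, where calls over all genes rose as well.

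Averaged over the sexes, 0 of 31 genes were called, beside 1.93% of all genes. At an unadjusted p under 0.05 there were 9, beside 18.6% of all genes. Only 3 of the 9 were among the 20 measured genes, and the others were low genes. Without both *CSB* replicate 1 libraries 23 *Ugt* genes passed the filter, against 31 with them. Voom called 0. DESeq2 called 2, *Ugt303B3* (adjusted p = 0.00342) and *Ugt49B2* (adjusted p = 0.0107), both low genes, beside 852 of all 13536 genes tested. The likelihood ratio test called 6, these 2 with *Ugt303A1*, *Ugt303B1*, *Ugt35D1* and *Ugt36F1*, beside 1144 of all 13536 genes tested. Over the alternatives in which it was tested, the adjusted p of *Ugt303B3* was between 5.17e-04 and 0.525, the last of these without the replicate 1 libraries of *CSB*, and *Ugt49B2* then no longer passed the filter. *Ugt* genes were also called without *CSB* male replicate 2, *CSB* female replicate 2, *CSB* male replicate 1 or *Obp56h-/-* male replicate 1. The number of calls over all genes was then higher too, most without *CSB* male replicate 2 and only slightly without *Obp56h-/-* male replicate 1. Of the 20 measured genes, only *Ugt301D1* had all 4 *Obp56h-/-* libraries on one side of all 4 *CSB* libraries, beside 8.65% of all genes. It was at 18.1 and 18.7 CPM per kb in *Obp56h-/-* males, against 14.0 and 17.4 in *CSB* males, and at 17.5 and 17.6 in *Obp56h-/-* females, against 13.3 and 12.8 in *CSB* females. The averaged log2 fold change was 0.33 ± 0.11 (adjusted p = 0.129, and 0.00597 to 0.329 over the alternatives, the lowest without *CSB* male replicate 2), so that it did not pass the test.

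Of the 20 genes, 14 in females and 17 in males had an estimated log2 fold change within 0.5 of 0. For 7 in females and 4 in males the whole nominal 95% interval was within these limits, and these intervals are somewhat too narrow. The medians were -0.02 and -0.03, beside -0.03 and -0.05 over all genes tested. In females 8 of the 20 were above 0 and 12 below, and in males 10 and 10. The 95% interval of *Ugt35B1* in females was -0.30 to 0.29. Wider intervals were found for genes with few reads, such as *Ugt305A1*, with 11 to 43 reads a library in males and 9 to 34 in females (log2 fold change in females -0.84, 95% interval -2.29 to 0.60). *Ugt37A3*, named after its values were seen, had the largest estimate of the 20 genes in females. It was at 4.09 and 2.72 CPM per kb in *Obp56h-/-* females, against 1.38 and 1.54 in *CSB* females (1.22 ± 0.44, adjusted p = 0.313), and did not pass the test.

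**Figure D3:**
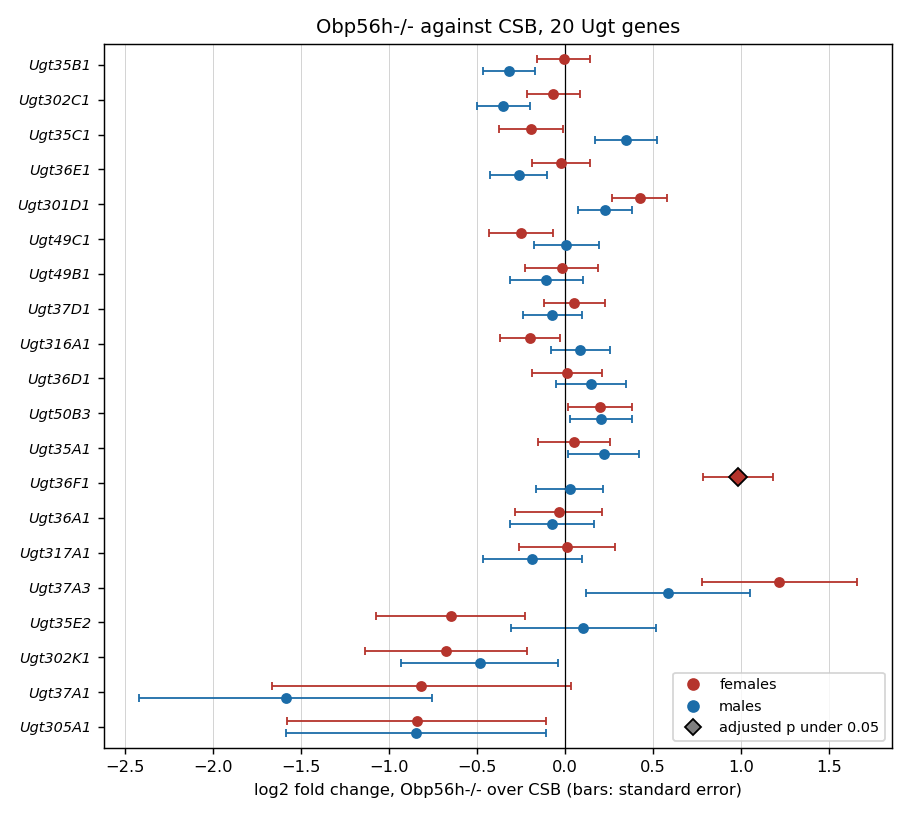
Log2 fold change of *Obp56h-/-* over *CSB* for the 20 measured *Ugt* genes, from highest to lowest level, in females (red) and males (blue), with the standard error from edgeR as bars and adjusted p under 0.05 as a diamond. *Ugt36F1* in females, at 0.98, is the one diamond, and bars are longest for the genes with the fewest reads.

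The sexes were compared in each genotype and on average. Averaged over the genotypes, 3 of the 31 *Ugt* genes differed between males and females, beside 6.74% of all genes. *Ugt35C1* and *Ugt37D1* were higher in males and *Ugt49C1* was lower. Among the 20 measured genes 14 were above 0 and 6 below, with a median log2 fold change of 0.16, beside -0.004 over all genes tested, and 16 of the 20 were within 0.5 of 0. Without *Obp56h-/-* male replicate 1 only *Ugt35C1* stayed called. Without *CSB* male replicate 2, *Ugt36D1*, *Ugt37A3*, *Ugt49B1* and *Ugt317A1* were added. Calls over all genes moved the same way, with fewer in the first of these fits and more in the second.

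*Ugt35C1* was at 25.1 and 29.7 CPM per kb in *Obp56h-/-* males, against 15.4 and 14.1 in *Obp56h-/-* females, and at 18.6 and 24.5 in *CSB* males, against 14.2 and 19.3 in *CSB* females. The sexes did not overlap in *Obp56h-/-*, where 48% of all genes did not, and overlapped in *CSB*, where 30.6% of all genes did not. The averaged log2 fold change was 0.62 ± 0.13 (1.54-fold, adjusted p = 0.00409), and the call held under all 18 alternatives, with adjusted p up to 0.0274. In *Obp56h-/-* alone it was the 1 of 31 genes called, beside 3.19% of all genes, at 0.90 ± 0.18 (1.86-fold, adjusted p = 0.00688). This call was lost without replicate 2 of *Obp56h-/-* females (adjusted p = 0.0676) or of *Obp56h-/-* males (adjusted p = 0.0538), and the adjusted p was otherwise as low as 2.92e-07. *Ugt37A3* was called beside it when either *CSB* male library was left out, where calls over all genes rose as well. Without *Obp56h-/-* male replicate 2, where calls over all genes fell, *Ugt37A3* was called in place of *Ugt35C1*. In *CSB* the value was 0.35 ± 0.18 (adjusted p = 0.547), and the difference between the genotypes, 0.54 ± 0.25, did not pass the test (adjusted p = 1.00).

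*Ugt37D1* was at 12.02 and 12 CPM per kb in *Obp56h-/-* males, against 9.98 and 8.73 in *Obp56h-/-* females, and at 12.9 and 12.3 in *CSB* males, against 7.73 and 10.2 in *CSB* females. All 4 male libraries were above all 4 female libraries, and the averaged log2 fold change was 0.42 ± 0.12 (1.34-fold, adjusted p = 0.0403). *Ugt49C1* was at 9.06 and 9.43 CPM per kb in *Obp56h-/-* males, against 13.3 and 10.6 in *Obp56h-/-* females, and at 7.81 and 10.5 in *CSB* males, against 13.2 and 15.2 in *CSB* females. All 4 male libraries were below all 4 female libraries, and it fell by 0.50 ± 0.13 on the log2 scale (adjusted p = 0.0212). Both calls were near the threshold. That of *Ugt37D1* was lost in 6 of 18 alternatives, with adjusted p up to 0.219, among them leaving out *CSB* female replicate 1 (adjusted p = 0.159), *Obp56h-/-* female replicate 2 or either *Obp56h-/-* male library, and leaving out both *CSB* replicate 1 libraries. That of *Ugt49C1* was lost in 4, with adjusted p up to 0.220, which left out *Obp56h-/-* female replicate 1, *CSB* female replicate 2 or either *Obp56h-/-* male library. *Ugt49B1*, which lies 462 bp from *Ugt49C1*, had an averaged log2 fold change of -0.32 ± 0.15 (adjusted p = 0.277).

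*Ugt317A1*, like *Ugt49C1*, was lower in all 4 male libraries than in any female library. With *Ugt37D1*, these were the 3 of the 20 genes without overlap between the sexes, beside 10.2% of all genes. It was at 1.90 and 2.64 CPM per kb in *Obp56h-/-* males, against 3.37 and 3.68 in *Obp56h-/-* females, and at 1.86 and 3.29 in *CSB* males, against 3.31 and 3.66 in *CSB* females (averaged -0.54 ± 0.20, adjusted p = 0.137). Of the 20 measured genes *Ugt37A3* had the largest averaged estimate, -1.03 ± 0.32, and did not pass the test (adjusted p = 0.0665). It was at 0.699 and 1.98 CPM per kb in *Obp56h-/-* males, against 4.09 and 2.72 in *Obp56h-/-* females, and at 1.22 and 0.583 in *CSB* males, against 1.38 and 1.54 in *CSB* females. The sexes did not overlap within either genotype, as for 48% of all genes in *Obp56h-/-* and 30.6% in *CSB*, and overlapped when the genotypes were pooled. Over the alternatives the adjusted p was between 5.40e-04 and 0.366.

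In *CSB* 1 of the 31 genes differed between the sexes, beside 2.90% of all genes. It was *Ugt36F1*, at 5.59 and 5.85 CPM per kb in *CSB* males, against 3.23 and 3.20 in *CSB* females (log2 fold change 0.83 ± 0.20, 1.78-fold, adjusted p = 0.0281). In *Obp56h-/-* it was at 5.74 and 5.90 CPM per kb in males, against 5.90 and 6.82 in females (-0.13 ± 0.19, adjusted p = 0.928). The *CSB* female libraries are the same ones against which the deletion was compared above. The call in *CSB* was lost without *CSB* female replicate 1 (adjusted p = 0.170), *CSB* female replicate 2 (adjusted p = 0.238) or both *CSB* replicate 1 libraries (adjusted p = 0.134), and with all libraries kept it was lost with DESeq2 (adjusted p = 0.0725) and voom (adjusted p = 0.345). The adjusted p was between 0.0145 and 0.345 over all alternatives. Without *CSB* male replicate 2, *Ugt36D1*, *Ugt49B1* and *Ugt49C1* were called beside *Ugt36F1*, where calls over all genes rose as well. *Ugt35B1*, the most abundant member, was at 50.9 and 64.1 CPM per kb in *CSB* males, against 43.3 and 46.0 in *CSB* females (0.36 ± 0.15, adjusted p = 0.341), and in *Obp56h-/-* the sexes overlapped (0.05 ± 0.15, adjusted p = 0.977).

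**Figure D4:**
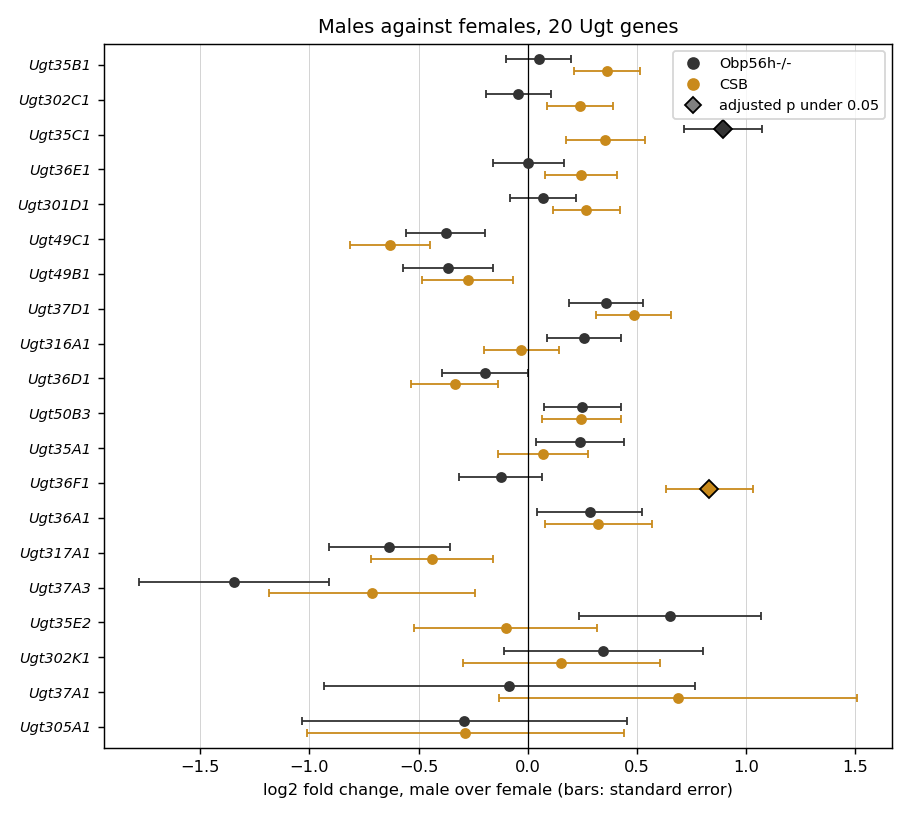
Log2 fold change of males over females for the 20 measured *Ugt* genes, from highest to lowest level, in *Obp56h-/-* (black) and *CSB* (ochre), with the standard error from edgeR as bars and adjusted p under 0.05 as a diamond. *Ugt35C1* is called in *Obp56h-/-* at 0.90 and *Ugt36F1* in *CSB* at 0.83, and *Ugt49C1*, *Ugt49B1*, *Ugt36D1*, *Ugt317A1*, *Ugt37A3* and *Ugt305A1* lie left of 0 in both genotypes.

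Whether the effect of the deletion differed between the sexes was tested by the interaction. It was called for 0 of 31 *Ugt* genes, beside 0.0369% of all genes, and DESeq2 and voom also called 0. At an unadjusted p under 0.05 there were 2, *Ugt36F1* and *Ugt35C1*, beside 3.05% of all genes. The sex difference of the 20 genes in *Obp56h-/-* and in *CSB*, which rest on different libraries, had Pearson's r = 0.59 and Spearman's rho = 0.53 across genes, and 15 of the 20 had the same sign. The effect of the deletion in females and in males had r = 0.65 and rho = 0.59, with the same sign in 14. Genes are not independent replicates, and the libraries share the replicate 1 pattern of *CSB*.

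**Figure D5:**
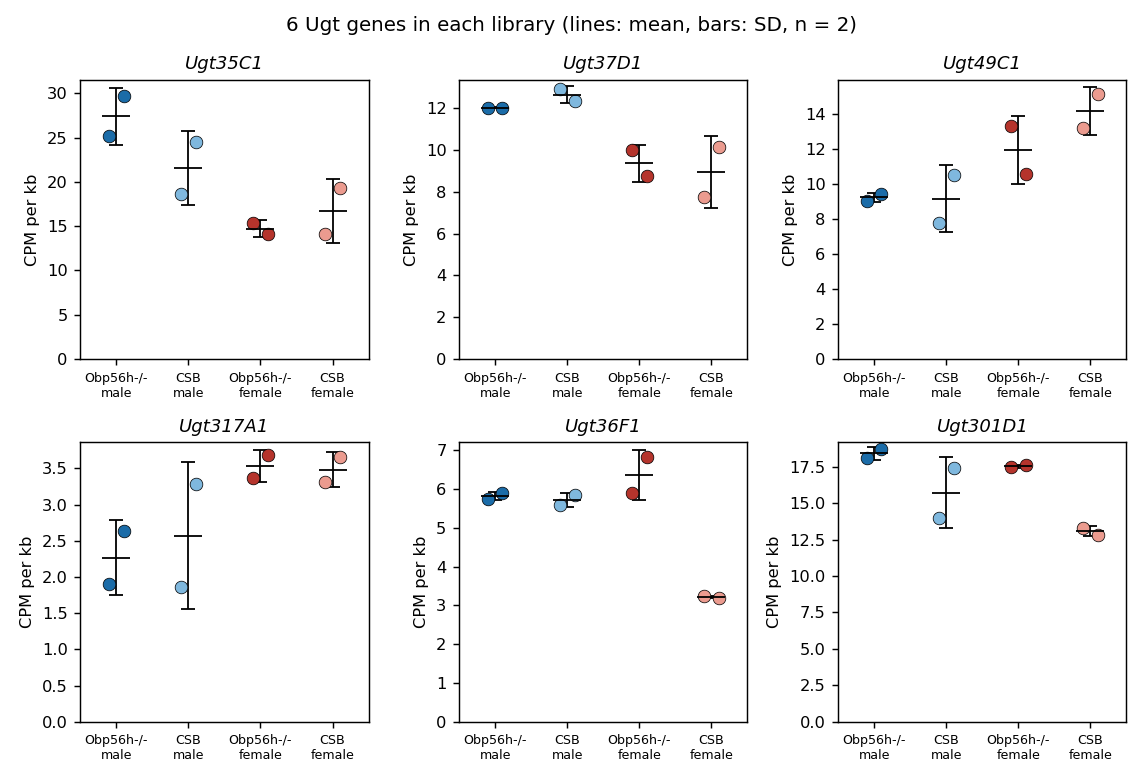
Level in CPM per kb of 6 *Ugt* genes in each library, by group, with the mean as a line and the SD as bars (n = 2). *Ugt35C1* and *Ugt37D1* are higher and *Ugt49C1* and *Ugt317A1* lower in males, *Ugt36F1* is low in *CSB* females alone (3.23 and 3.20), and *Ugt301D1* is higher in each *Obp56h-/-* library than in any *CSB* library. The differences of *Ugt317A1* and *Ugt301D1* did not pass the test.

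Some markers of head tissues also differed between the sexes, and whether the amount of tissue differed was not tested. The 9 head fat body markers found (of 10) summed to 12310 to 13310 CPM in males, against 61250 to 70810 CPM in females. On average 6 of the 9 were lower in males, beside 4.69% of all genes. These were *Yp1*, *Yp2*, *Yp3*, *fit*, *to* and *apolpp*, with log2 fold changes from -8.27 for *Yp2* to -0.347 for *apolpp*. *Lsp2*, a storage protein gene of the fat body, was higher in *Obp56h-/-* females than in *CSB* females (1.85 ± 0.35 on the log2 scale, adjusted p = 0.0104, and 1.65 with adjusted p = 0.0289 without the *CSB* replicate 1 libraries) and on average over the sexes (1.57 ± 0.24, adjusted p = 0.00100). In males it was not called with all libraries, and was called without those 2 (2.19 ± 0.34, adjusted p = 0.0107). Over the 9 fat body markers the median log2 fold change for the deletion was 0.125 in females, -0.762 in males and -0.273 on average. *Lsp2* thus does not stand for its list. Among midgut markers the amylase genes *Amy-d* and *Amy-p* were higher in males (1.90 and 2.07), and of the glial markers *wrapper* was (0.38). The medians for sex were -0.166 over the 10 midgut markers and 0.12 over the 8 glial markers. Of the markers of the antenna, photoreceptors, Malpighian tubule, male reproductive tract and ovary, edgeR called 0 in the 7 comparisons (273 tests, 26 of them at an unadjusted p under 0.05), DESeq2 6 and voom 2. The part of these cell types in the differences of the *Ugt* genes was not tested.

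The other genes of the pathway were followed in lists. The enzymes that supply UDP-sugars, among them *UGP* and *sgl* (4 tested of 5 found), the regulators of the xenobiotic response, among them *cnc*, *Keap1* and *Hr96* (7 tested), and the 4 sulfotransferases *St1* to *St4*, which attach sulfate to similar substrates, had 0 genes called in the 7 comparisons by edgeR, DESeq2 or voom (105 tests, 6 of them at an unadjusted p under 0.05). Of 35 glutathione S-transferase genes, which conjugate glutathione to electrophiles, 31 were tested. For the deletion, edgeR, DESeq2 and voom called 0 of them in females, in males and on average. At an unadjusted p under 0.05 in edgeR there were 4, 2 and 6, beside 10.7%, 9.15% and 18.6% of all genes. Between the sexes, 5 were higher in males on average and 0 lower, beside 2.05% and 4.69% of all genes. The 5 were *GstE9*, *GstD9*, *GstE3*, *GstZ2* and *GstS1*, with log2 fold changes of 0.36 to 0.94. *GstE9* was at 37.9 and 37.5 CPM in *Obp56h-/-* males, against 23.8 and 17.1 CPM in *Obp56h-/-* females, and at 30.7 and 42.4 CPM in *CSB* males, against 17.5 and 18.7 CPM in *CSB* females (0.94 ± 0.13, adjusted p = 1.14e-04). In *Obp56h-/-*, *GstE4* was lower in males (-1.08 ± 0.29, adjusted p = 0.0466).

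Of the 5 ABC transporters that export conjugates or drugs, *Mdr50* was called. It was at 1.06 and 1.61 CPM in *Obp56h-/-* females, against 4.88 and 5.58 CPM in *CSB* females, and at 10.1 and 8.71 CPM in *Obp56h-/-* males, against 7.58 and 8.56 CPM in *CSB* males. It fell by 2.00 ± 0.28 on the log2 scale in females (adjusted p = 4.98e-04), and its interaction, 2.22 ± 0.36, passed the test as well (adjusted p = 0.0342), as 1 of 5 genes in the whole table. Without the *CSB* replicate 1 libraries these were -2.08 (adjusted p = 0.00417) and 2.24, where the interaction no longer passed (adjusted p = 0.107). With all libraries kept, DESeq2 called 1 of the 5 transporters for the interaction and voom 0. For *Mdr50* the libraries of the 2 genotypes did not overlap in either sex, as for 41.3% of all genes in females and 40.9% in males. In males the closest were nearly equal, at 8.71 and 8.56 CPM, and the difference was not called.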

How the data were processed

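RNA from pooled heads of 4 groups (*Obp56h-/-* and *CSB*, males and females) was depleted of ribosomal RNA and sequenced as paired ends. The authors trimmed and filtered the reads with AfterQC, screened them for ribosomal RNA with bbduk, aligned them to release 6 of the fly genome with GSNAP, counted unique alignments per gene with Subread, and deposited these counts without normalization, with gene lengths. Tool versions and the strand setting are not given in the sources used here. All 8 libraries were used, grouped by their labels, and 0 columns were left out. Positions came from Ensembl's annotation of BDGP6, in which 17288 of the 17490 genes were found, 202 not, and all 35 *Ugt* genes; former names came from RefSeq's gene table.

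The members, lists and tests were chosen with earlier results of these data known. Genes were filtered with filterByExpr (minimum count 10) and the 4 groups fitted in 1 quasi-likelihood model in edgeR 4.0.16 (R 4.3.3) with TMM scaling. The 7 contrasts were genotype in each sex and on average, sex in each genotype and on average, and their interaction, each adjusted by Benjamini-Hochberg over the 13536 genes tested. Intervals of fold changes are nominal 95% intervals from the SE and the normal distribution. With 2 libraries a group they are narrower than the quasi-likelihood test implies. The deepest library was 25918919 and the shallowest 10127941 reads. A count of 0 was read as up to 3 counts, which covers counting error only. The script was tested on simulated data. Values in every library are given for members called in any contrast, the 8 with the highest level per length and the highest of each numbered family. Others were named after their values were seen. Marker lists covered antenna, photoreceptors, glia, head fat body, midgut, Malpighian tubule, male reproductive tract and ovary. 1 gene of a pathway list is not reported here.

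Alternatives were a likelihood ratio test, the same on counts per kb (GeTMM), DESeq2 1.42.0, limma 3.58.1 (voom with sample weights), RLE factors, library size alone, no filter, at least 10 counts in every library, the replicate number as a block, each library left out in turn, and both *CSB* replicate 1 libraries left out. Figures were made in Python 3.11.15 with matplotlib 3.10.9.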

Additional observations from a re-analysis of the deposited data

Results flagged for a closer look

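The estimated sex difference of *Ugt36F1* had opposite signs in the 2 genotypes. In *Obp56h-/-* both male libraries were below both female libraries, but the closest were nearly equal, at 5.901 CPM per kb in a male and 5.903 in a female library, and the difference was not called (log2 fold change -0.13 ± 0.19, 95% interval -0.49 to 0.24, adjusted p = 0.928). In *CSB* both male libraries were above both female libraries (0.83 ± 0.20, adjusted p = 0.0281). Non-overlap of this kind held for 48% of all genes in *Obp56h-/-* and 30.6% in *CSB*. The interaction was -0.96 ± 0.27 (SE) on the log2 scale. It did not pass edgeR's quasi-likelihood test over all genes (adjusted p = 0.734, between 0.184 and 1 over the alternatives), so the difference between the genotypes is not shown.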

How the results depend on the processing

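Counts of *Ugt* genes called are given here in the order genotype in females, in males and averaged, sex in *Obp56h-/-*, in *CSB* and averaged, and interaction. They were 1, 0, 0, 1, 1, 3 and 0 with edgeR's quasi-likelihood test. RLE factors gave the same counts. The likelihood ratio test gave 1, 0, 6, 1, 1, 4 and 0, GeTMM 1, 0, 5, 1, 1, 3 and 0, DESeq2 1, 0, 2, 1, 0, 3 and 0, voom 0, 0, 0, 2, 0, 2 and 0, library size alone 0, 0, 0, 1, 1, 3 and 0, no filter 2, 0, 6, 2, 2, 4 and 0, at least 10 counts in every library 1, 0, 0, 1, 2, 3 and 0, and both *CSB* replicate 1 libraries left out 0, 0, 0, 1, 0, 2 and 0. Leaving out 1 library at a time gave 0 to 2, 0 to 2, 0 to 6, 0 to 2, 0 to 4, 1 to 7 and 0; where a group was left with 1 library, that library was assumed to vary like the other groups. Calls over all genes changed as well, also where 1 library was left out. For genotype averaged over the sexes, the quasi-likelihood test called 261 of 13536 genes, voom 265 and library size alone 256. The likelihood ratio test called 1144, DESeq2 852 and GeTMM 729, and without a filter 959 of 16624 were called. The cause of these changes was not tested.

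The replicate block gave 1, 0, 3, 1, 1, 4 and 0. The replicate numbers did not pair the libraries across all groups. Same-numbered deviations correlated at 0.46 between *CSB* females and *CSB* males, whose replicate 1 libraries both stood apart. For the other pairs of groups they correlated between -0.10 and 0.07. The block fits the same shift in every group, so it could not take up a deviation shared by *CSB* libraries alone.

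Library size alone moved the median log2 fold change of all genes for genotype to -0.14 in females and in males, against -0.03 and -0.05 with TMM, and *Ugt36F1* in males was then at -0.064, against 0.03. Of 396 values of named genes under the alternatives, 355 kept their direction and side of the threshold, 23 lost and 17 gained a call, and 1 changed sign. The depth of the 15 low genes, 19 to 254 reads a library for all of them together, limits what can be said of them.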
